A study of Macaca mulatta with 304 samples.

Results

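Whole blood RNA of 12 adult rhesus macaques given 9.8 Gy to the thorax was examined on Day 60 and Day 90 after irradiation, between animals followed to the end of the study and animals whose sampling ended earlier. The survivors were the 5 animals with a blood draw on Day 270 (B1003 and B1004, male, and B1502, B1503 and B1505, female). The earlier-ending group held the 7 animals whose last draw came before Day 270, at Day 102 (B1504, female), Day 120 (B1005 and B1006, male), Day 127 (B1001, male), Day 150 (B1501, female), Day 160 (B1002, male) and Day 172 (B1506, female). These were 12 of the 28 animals of the series, with 24 libraries (10 of survivors and 14 of earlier-ending animals), and the Day 60 and Day 90 counts of an animal were added, so that the animal was the replicate. The last draw stands in for survival here, since an animal that met the criteria for euthanasia was bled a final time.

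All 12 animals were of the Chinese sub-strain, carried no engineered allele, and received the same dose to the thorax. Each also had a control draw 2 days before irradiation. Pain relief with tramadol or buprenorphine was given to all animals in the weeks after irradiation, and dexamethasone was given for fast breathing, without a label of which animals received it. Radiation of the thorax injures the lung in phases, in which an inflammatory pneumonitis develops over weeks to months and fibrosis can follow. Whole blood RNA is a mixture of neutrophils, lymphocytes, monocytes, eosinophils, platelets and young red cells. In such bulk samples fewer cells of a type and less RNA per cell cannot be told apart.

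The 24 libraries held 3888127 to 10043641 counted reads (median 5959677), and the summed counts ranged from 9290804 to 17619888 per animal. Levels are given in CPM, the count of a gene scaled to the library size after upper quartile scaling. T cell CD3E (190 to 597 CPM), neutrophil CSF3R (354 to 4170 CPM), B cell MS4A1 (70.9 to 324 CPM) and platelet PPBP (662 to 2740 CPM) were present in all 12 animals, as in blood. The labelled sex matched Y-linked genes in every library. Each of the 24 libraries correlated best with other libraries of its own animal over 400 genes that vary between animals. The Day 90 library of survivor B1003 was looked at further. Over 12 genes that B1003 hardly used on its other days, among them PIM1, its median level was 21.8% of that of B1505. It was 4.72% to 10.8% on the other days of B1003, but the genes were chosen as low on those days beside B1505, which fixes those values. They were also chosen as expressed in B1505, which bears on the percentages of all animals. Animals other than B1003 and B1505 had 15.7% to 42.6% at Days 60 and 90. Results that rest on this library are given with and without it. The labels carry a library number of unstated meaning, which is 0 at Day 60 and Day 90 in 8 animals and lies in a higher range in B1002, B1003, B1505 and B1506. The beta globin gene HBB was at 181 to 244 CPM in those 4 animals and at 3.8 to 14.2 CPM in the 8 others. Both groups had 2 animals in the numbered range.

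Survivors and earlier-ending animals were compared to ask whether the blood transcriptome of the pneumonitis window carried a difference that went with later survival. Across 13751 genes, the edgeR quasi-likelihood test with Benjamini-Hochberg adjustment called 0 genes (0%) in the summed counts, where a call needed an adjusted p up to 0.05 together with a fold change from 1.5 upwards. The smallest adjusted p was 0.362. At an unadjusted p under 0.05 there were 1.64% of genes, with 162 (1.18%) higher and 63 (0.458%) lower in survivors. That is less than the share of 0.05 that chance alone gives on average. DESeq2 called 1 gene, PIM1, and found 276 genes at an unadjusted p under 0.05. The median half-width of the unadjusted 95% interval of a gene was 0.49 on the log2 scale. A call after adjustment needed a larger difference than that, as PIM1 did not pass in edgeR at 3.10. The absence of calls therefore does not exclude differences above 0.49. The groups did not overlap for 12 genes (0.0873%), 9 of them higher and 3, with CELA1 among them, lower in survivors. In groups of this size some of 13751 genes lack overlap by chance alone. A lack of overlap, here or on single days, is therefore not by itself evidence of a difference.

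PIM1, a serine/threonine kinase whose transcription is induced by cytokine receptors through STAT factors, had the smallest p. The gene lies on chromosome 4, from 132270361 to 132275220 on the minus strand of Mmul_10. Its summed level was 8.43 CPM in B1003, 15.6 CPM in B1004, 22.9 CPM in B1502, 5.12 CPM in B1503 and 54 CPM in B1505, against 1.03 to 5.06 CPM (median 2.39) in the 7 earlier-ending animals. All 5 survivors lay above all 7 earlier-ending animals, B1503 by a narrow margin and B1003 through its Day 90 library, without which it is left with its Day 60 level of 2.14 CPM, inside the range of the earlier-ending animals. The difference was 3.10 on the log2 scale (SE 0.517, 95% interval 1.99 to 4.20) and did not pass in edgeR (adjusted p = 0.362), while DESeq2 gave 3.06 with an adjusted p of 3.48e-05. Without the Day 90 library of B1003 it was 3.02 (edgeR, adjusted p = 1), and without B1505, the animal of highest level, 2.39 (adjusted p = 1).

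At Day 60 PIM1 was at 2.14 CPM in B1003, 9.96 CPM in B1004, 11.8 CPM in B1502, 3.49 CPM in B1503 and 53.1 CPM in B1505, and at 0 to 6.51 CPM in earlier-ending animals. The groups overlapped on that day, and the difference of 2.82 (SE 0.751) did not pass (edgeR, adjusted p = 1). At Day 90 the same survivors had 12.3, 18, 28.5, 5.62 and 46.4 CPM, and earlier-ending animals had 1.52 to 3.26 CPM. PIM1 was the single gene called at Day 90 (0.00727% of genes), higher in survivors by 3.26 on the log2 scale (SE 0.422, 95% interval 2.36 to 4.16, edgeR adjusted p = 0.0126) in 5 of 5 animals. Without the Day 90 library of B1003 the difference was 3.41 (edgeR, adjusted p = 0.0144). The call was lost with sex as a covariate (edgeR, adjusted p = 0.0501), without B1006 (0.055), B1502 (0.0635) or B1506 (0.0544), and among the 8 animals of library number 0 (2.83, adjusted p = 0.882).

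The same animals were high before irradiation. In the control draw PIM1 was at 18 CPM in B1004, 20.6 CPM in B1502 and 52.2 CPM in B1505, whereas B1003 and B1503 had 2.18 and 3.36 CPM, within the 0.815 to 4.51 CPM of earlier-ending animals. The difference at the control draw was 2.95 (SE 0.648), which did not pass in edgeR (adjusted p = 1) and passed in DESeq2 (adjusted p = 0.0319). The change of PIM1 from the own control was 0.32 in survivors (SE 0.283, edgeR adjusted p = 0.611) and -0.13 in earlier-ending animals (SE 0.278, adjusted p = 0.826). The median of PIM1 over 16 draws was 55.1 CPM in B1505, 23.9 CPM in B1502 and 19.9 CPM in B1004, and the medians of the other 9 animals were 1.52 to 3.58 CPM. B1003 was at 0.498 to 12.3 CPM over its 16 draws, with its highest value at Day 90. The high level of PIM1 thus ran through the draws of 3 animals, apart from 1 library of B1502 at 0 CPM.

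**Figure D1:**
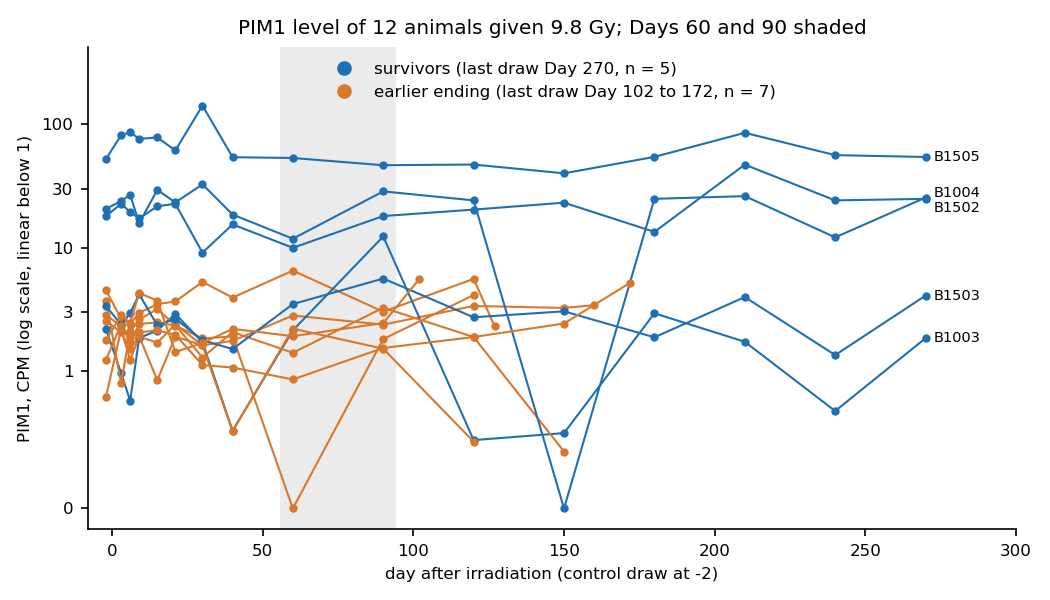
PIM1 level (CPM, log scale that is linear below 1) against the day of the draw, with 1 line for each of the 12 animals given 9.8 Gy, survivors in blue, earlier-ending animals in orange and Days 60 and 90 shaded. B1505, B1502 and B1004 had medians of 55.1, 23.9 and 19.9 CPM over their draws, with 1 draw of B1502 at 0 CPM, while B1003 had its highest value (12.3 CPM) at Day 90.

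Next by p among genes of higher level was LILRA6, of the leukocyte immunoglobulin-like receptors. LILRA6, an activating receptor of myeloid cells (chromosome 19, 54479988 to 54482972, plus strand), was at 22.7, 38, 63, 73 and 28 CPM in the survivors B1003, B1004, B1502, B1503 and B1505, and at 8.37 to 22.9 CPM (median 19) in earlier-ending animals. The ranges of LILRA6 touched, with B1003 just below the highest earlier-ending animal, and the difference of 1.39 (SE 0.328) did not pass (edgeR, adjusted p = 1). The control draw gave a like difference of 1.42 (SE 0.318) for LILRA6, without overlap of the groups (20.9 to 55.8 CPM against 4.64 to 19.2 CPM). LILRA6 belongs to a family of near-identical genes, so reads may be split between copies and its value is uncertain. LILRB4, an inhibitory receptor of monocytes and dendritic cells from the same family and further down in the order of p, had 2.47 to 12.3 CPM in survivors and 0.865 to 3.5 CPM in earlier-ending animals (difference 1.46, SE 0.406, edgeR adjusted p = 1). Its mean at the control draw was 3.83 CPM in survivors and 1.35 CPM in earlier-ending animals.

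The semaphorins SEMA6B and SEMA6D, membrane proteins that act as guidance signals between cells, lay on opposite sides. SEMA6B (chromosome 19, 4463377 to 4504748, minus strand) was at 2.4 CPM in B1003, 16.6 CPM in B1004, 2.29 CPM in B1502, 6.27 CPM in B1503 and 6.77 CPM in B1505, and at 0.316 to 2.91 CPM in earlier-ending animals (difference 2.33, SE 0.554, edgeR adjusted p = 1). Its difference was already 2.15 (SE 0.664) at the control draw. SEMA6D (chromosome 7, 23594566 to 24184027, plus strand) was at 0.747 CPM in B1003, 1.44 CPM in B1004, 2.06 CPM in B1502, 2.3 CPM in B1503 and 0.398 CPM in B1505, and at 1.61 to 12.3 CPM (median 4.32) in earlier-ending animals. The SEMA6D difference of -1.95 (SE 0.51) did not pass (edgeR, adjusted p = 1). Unlike SEMA6B, its difference at the control draw was -0.40 (SE 0.517), and its change from the own control was -1.32 in survivors and 0.17 in earlier-ending animals, a difference of -1.49 that did not pass (edgeR, adjusted p = 0.999).

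The other genes of higher level, none of which passed, were MYO5C, an unconventional myosin (2.26, SE 0.625), APOL1, an apolipoprotein of high-density lipoprotein (1.98, SE 0.547), C16H17orf100 (1.78, SE 0.506), ARHGAP23, a GTPase-activating protein (0.99, SE 0.27), and SULT1A3, a sulfotransferase (0.84, SE 0.236). SULT1A3 was at 16.2 to 36.8 CPM in survivors and 9.91 to 21.7 CPM in earlier-ending animals. It shares bases on the same strand with SLX1A, so counts of the pair may be split. SLX1A, a nuclease subunit that was not among these 10 genes, did not overlap between groups, at 16.1 to 20.6 CPM in survivors and 8.83 to 14.9 CPM in the other group. DSP, the desmosomal protein desmoplakin of epithelium, was at 16.1 CPM in B1505, 4.43 CPM in B1003, 3.14 CPM in B1503, 0.791 CPM in B1502 and 0.67 CPM in B1004, and at 0.752 to 1.8 CPM in earlier-ending animals (2.20, SE 0.631). Of the other skin and squamous genes, KRT14, KRT1, KRT13 and SPRR1B were at 0 in all 24 libraries. KRT10 was at 6.27 to 9.77 CPM in survivors and 3.22 to 9.85 CPM in the other group (0.21, SE 0.269), and PERP had 0.30 (SE 0.374). Means before irradiation, in survivors and earlier-ending animals, were already 7 and 1.38 CPM for MYO5C and 4.5 and 1.93 CPM for DSP. They were 0.707 and 0.532 CPM for APOL1.

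Among the genes of lower level in survivors, SLC7A11, the cystine and glutamate exchanger that feeds glutathione synthesis, was at 2.95 to 7.91 CPM against 4.74 to 23.4 CPM (-1.17, SE 0.371). CELA1, an elastase of the chymotrypsin family, was at 0.383 to 0.717 CPM against 0.736 to 1.61 CPM (-1.09, SE 0.33), without overlap and near the limit of counting. NSUN3, a methyltransferase of a mitochondrial transfer RNA, differed by -0.51 (SE 0.183). HUNK, a protein kinase, was at 0.213 to 4.9 CPM in survivors and 1.14 to 17.3 CPM in the other animals (-2.12, SE 0.778). SLFN11, which blocks stressed replication forks after DNA damage, was at 8.14 to 17.9 CPM in survivors, whereas earlier-ending animals ranged from 7.79 to 286 CPM (median 21.4), with B1002 at 286 CPM and B1005 at 95.7 CPM. The SLFN11 difference of -2.19 (SE 0.848) thus went with high values in a few animals. Before irradiation the mean of SLFN11 was already 13.1 CPM in survivors and 57.4 CPM in earlier-ending animals. That of HUNK was 3.3 and 8.16 CPM at the control draw, and that of CELA1 0.773 and 0.838 CPM. DTHD1 (-1.78), OR2A1 (-1.21), the small GTPase RAB34 (-1.90) and RHPN2 (-1.65) completed the 10 genes, none of which passed (edgeR, adjusted p = 1).

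**Figure D2:**
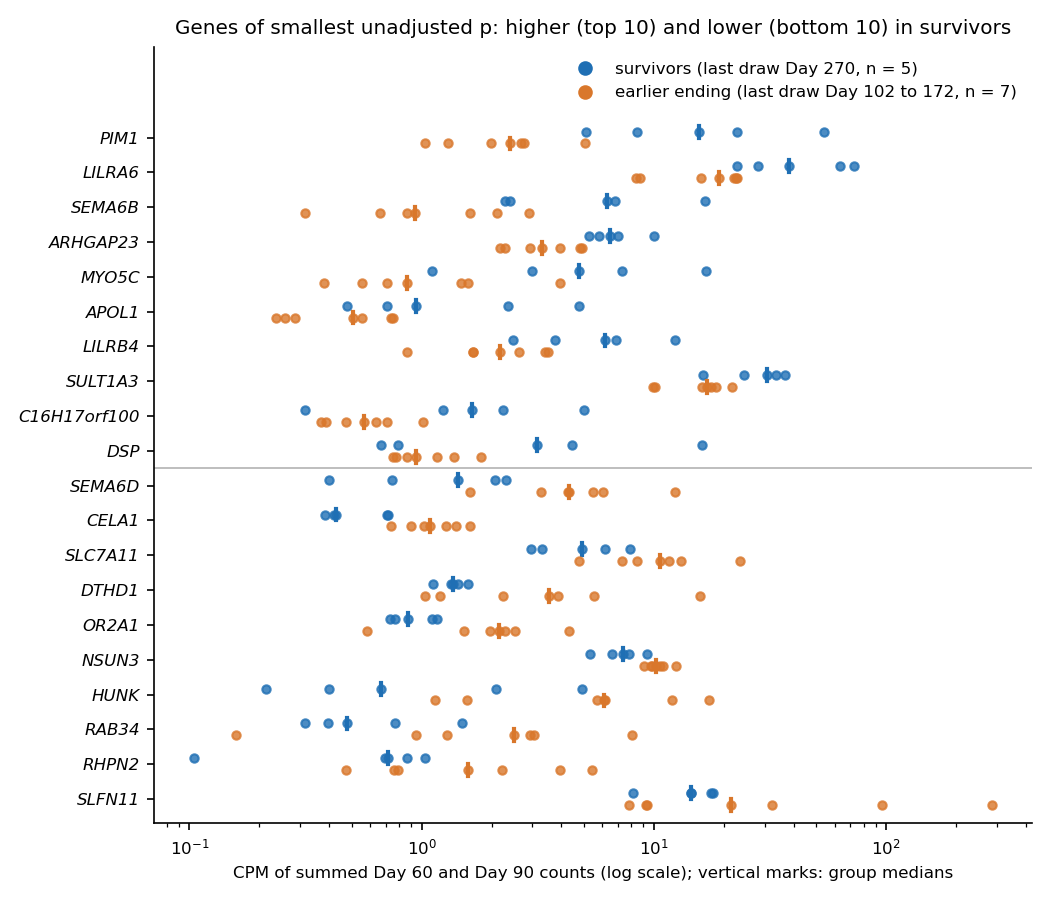
CPM of the summed Day 60 and Day 90 counts (log scale) for the 10 genes of smallest unadjusted p in each direction, with 1 point per animal and a vertical mark at each group's median. PIM1, ARHGAP23 and CELA1 did not overlap between the 5 survivors (blue) and the 7 earlier-ending animals (orange), and SLFN11 in earlier-ending animals spread from 7.79 to 286 CPM.

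Gene lists for blood cell types and for responses were then described by their median difference, beside a median of 0.02 over all 13751 genes. Most of these list medians changed sign when some single animal was left out. No member of any list passed in edgeR in the summed comparison, and DESeq2 called 1, PIM1, which is in the inflammatory cytokine signaling list. Mature neutrophil genes had a median of -0.50, with 0 of 24 members above 0. Among them CSF3R, the receptor of granulocyte colony-stimulating factor, had -0.21 (SE 0.441) and MME, a membrane peptidase of mature neutrophils, had -1.07 (SE 0.531). This median rested on B1504, the animal that ended first, and was 0.07 without it. Interferon response genes had a median of -0.30 with 4 of 32 members above 0, which was 0.04 without B1504. IFI44L and HERC5, both induced by type I interferon, had -0.98 (SE 0.534) and -1.07 (SE 0.593). The mean log2 CPM of each of these lists overlapped between groups, at 5.52 to 6.59 in survivors and 4.65 to 8.11 in earlier-ending animals for mature neutrophil genes, and at 4.83 to 5.75 and 4.88 to 6.71 for interferon response genes.

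Within the neutrophil granule list the median was -0.06, with 8 of 18 members above 0. RETN, which encodes resistin and is made by myeloid cells, was at 8.75, 9.96, 10.1, 3.35 and 2.15 CPM in B1003, B1004, B1502, B1503 and B1505, and at 1.04 to 4.14 CPM in earlier-ending animals (1.46, SE 0.421). MPO, the myeloperoxidase of primary granules, was at 1.35 to 5.94 CPM against 0.569 to 3.15 CPM (1.10, SE 0.466). Both genes had an unadjusted p under 0.05 and neither passed. CLEC10A, a lectin of dendritic cells, was at 3.74 to 16.1 CPM in survivors and 0.551 to 5.29 CPM in the other animals (1.35, SE 0.547). The control draw gave CLEC10A means of 6.16 CPM in survivors and 2.46 CPM in the other animals, and RETN means of 2.5 and 2.23 CPM. CISH, an inhibitor of cytokine signaling that is itself a STAT target, was at 60.6 to 93.9 CPM against 54.6 to 69.2 CPM (0.39, SE 0.132).

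Lymphocyte lists had medians near that of all genes. The median was 0.04 for B cell genes (18 of 25 above 0), 0.17 for plasma cell genes (8 of 12), -0.04 for T cell genes (7 of 18), -0.08 for naive lymphocyte genes (2 of 10) and -0.10 for cytotoxic lymphocyte genes (5 of 22). Of B cell genes, MS4A1, which encodes the CD20 antigen, had 0.04 (SE 0.354). Monocyte genes had a median of 0.09 (13 of 20), eosinophil genes -0.07 (4 of 10), basophil and mast cell genes -0.06 (3 of 9), erythroid genes -0.09 (12 of 29) and platelet and megakaryocyte genes 0.10 (12 of 22).

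Among responses, inflammatory cytokine signaling genes had a median of -0.14 (8 of 29 above 0), glucocorticoid response genes -0.095 (8 of 23), complement genes -0.03 (7 of 17) and genes of transforming growth factor beta and matrix -0.09 (8 of 24). ZBTB16, a glucocorticoid-induced transcription factor, was lower by 0.62 in survivors (SE 0.268, edgeR unadjusted p = 0.0371) without passing. Class II antigen presentation genes had a median of 0.15 (11 of 16), p53 targets 0.12 (16 of 23), DNA replication and mitosis genes 0.05 (19 of 31), immediate early genes 0.08 (11 of 19) and hypoxia and glycolysis genes -0.001 (13 of 26). For 21 genes that the study itself selected for survival on samples of this series the median was 0.02 (13 above 0). That list is not independent evidence of a direction.

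Markers of tissues other than blood were read in the same libraries. Of 8 lung epithelium genes, the surfactant gene SFTPA1 and the epithelial gene EPCAM were at 0 in all 24 libraries, and the list summed to 22.9 to 39 CPM in survivors and 24.5 to 39 CPM in the other group, with a median difference of 0.14 over 2 tested genes. Of 8 skin and squamous epithelium genes 4 were at 0 throughout, and the list summed to 10.8 to 25.2 CPM and 6.44 to 15.3 CPM (median 0.30 over 3 tested genes). Fibroblast and endothelium genes summed to 318 to 586 CPM and 306 to 506 CPM (median 0.005 over 2 tested genes). Most of that sum was PECAM1 (276 to 418 CPM and 272 to 420 CPM), followed by VWF (medians of 32.4 and 48.1 CPM), which leukocytes or platelets also express. The part of these cells in the results was not tested.

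**Figure D3:**
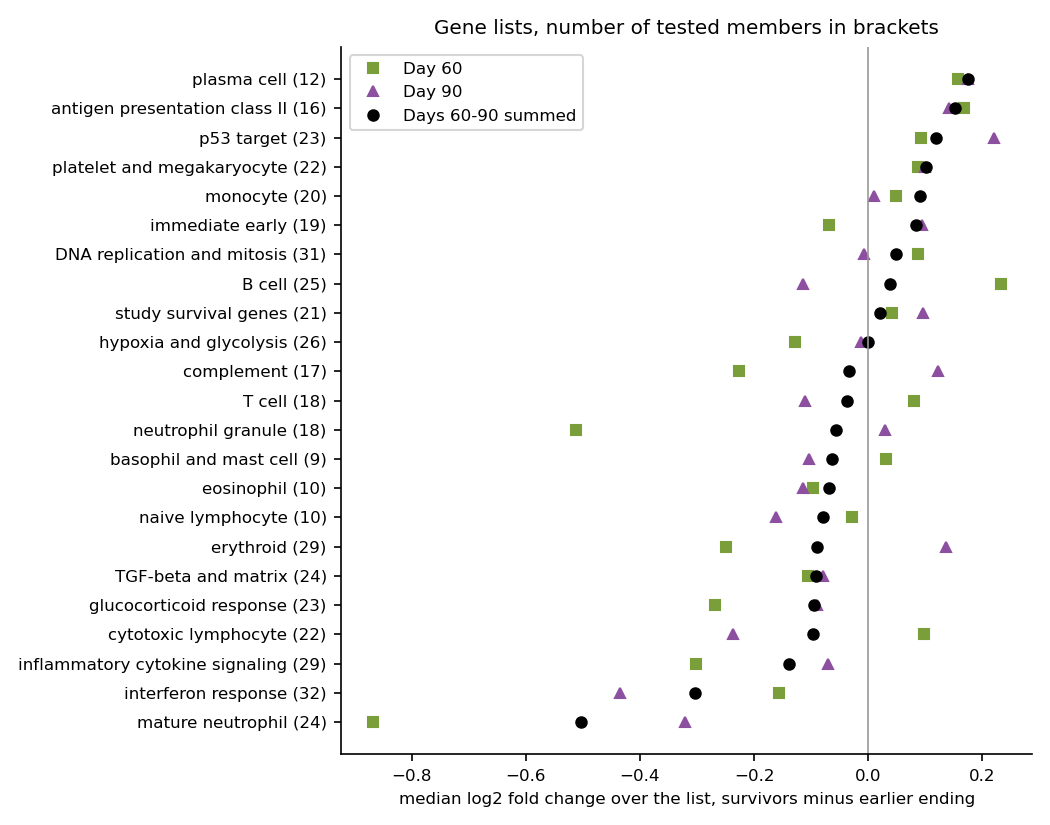
Median log2 fold change, survivors minus earlier-ending animals, of 23 gene lists with at least 9 tested members for Day 60 (squares), Day 90 (triangles) and both days summed (circles). Mature neutrophil genes lay farthest below 0 at Day 60 (-0.87), and most other medians lay within 0.3 of 0.

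Day 60 and Day 90 were also compared apart. At Day 60 edgeR called 0 genes, with 210 (1.53%) at an unadjusted p under 0.05 (0.771% higher in survivors), and DESeq2 called 0. Beside SEMA6B (2.25, SE 0.532), the genes of smallest p among those higher in survivors were TNNT3, a troponin of fast muscle (1.43, SE 0.354), and ACTL7B, an actin-like protein (1.71, SE 0.441). TNNT3 did not overlap between groups, at 4.6 to 15.5 CPM in survivors and 1.67 to 3.94 CPM in earlier-ending animals. LGR4, a receptor for R-spondins (-2.45, SE 0.71), CD300LB, an activating receptor of myeloid cells (-1.18, SE 0.354), and HUNK (-2.52, SE 0.783) had the smallest p among genes of lower level. Mature neutrophil genes had a median of -0.87 (1 of 24 above 0) and neutrophil granule genes -0.51 (4 of 18) on Day 60, and -0.30 and -0.20 without B1504.

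At Day 90, 315 genes (2.29%) had an unadjusted p under 0.05 in edgeR, 220 of them (1.6%) higher and 95 (0.691%) lower in survivors, and DESeq2 also called PIM1 alone. LILRA6 (1.62, SE 0.364) was at 26.1 to 86.7 CPM in survivors and 7.93 to 25.6 CPM in the other group, without overlap. SLX1A (0.85, SE 0.203) did not overlap either, at 17.1 to 25.8 CPM against 8.38 to 14.2 CPM. SEMA6D (-2.29, SE 0.614), RAB34 (-2.11, SE 0.704) and PLN, the phospholamban that regulates the calcium pump of muscle (-1.07, SE 0.357), had the smallest p among genes lower in survivors. On this day mature neutrophil genes had a median of -0.32 (2 of 24 above 0), neutrophil granule genes 0.03 (9 of 18) and interferon response genes -0.43 (1 of 32). Without B1504 the Day 90 medians were 0.29 for mature neutrophil genes (18 of 24 above 0), 0.51 for neutrophil granule genes and -0.008 for interferon response genes. The groups did not overlap for 7 genes (0.0509%) at Day 60 and 16 genes (0.116%) at Day 90.

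The change between Day 60 and Day 90 was tested within each group, with the animal as a block. Within survivors edgeR called 102 genes (0.742%), of which 72 rose and 30 fell. SOCS3, a STAT-induced inhibitor of cytokine receptors (chromosome 16, 74717689 to 74719374, minus strand), went from 15.5 to 72.8 CPM in B1003, 14.3 to 74.3 CPM in B1004, 14.8 to 96.2 CPM in B1502, 24.4 to 37.4 CPM in B1503 and 21.8 to 39.6 CPM in B1505. It rose by 1.76 (SE 0.276, edgeR adjusted p = 0.0192) in 5 of 5 survivors. S100A9, a subunit of the calcium-binding calprotectin of neutrophils (chromosome 1, 97696189 to 97699439, minus strand), rose by 2.06 (SE 0.452, edgeR adjusted p = 0.049), with increases from 98.1 to 455 CPM in B1003, 67.7 to 521 CPM in B1004, 61.9 to 624 CPM in B1502 and 48.6 to 151 CPM in B1503, and 144 and 146 CPM in B1505. UBTD1, a ubiquitin-domain protein, rose by 1.74 (SE 0.289, adjusted p = 0.0281). Other members of the lists that rose were IL1B, the cytokine interleukin 1 beta (1.21), JUNB, a subunit of the AP-1 transcription factor (1.09), C5AR2, a receptor of complement C5a (1.31), and the glycolytic regulators HK3 (0.985) and PFKFB4 (1.06).

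CX3CR1, the fractalkine receptor of patrolling monocytes and cytotoxic lymphocytes, fell by 0.875 (SE 0.19, edgeR adjusted p = 0.049). ST8SIA1, a sialyltransferase, fell from 32.7 to 7.18 CPM in B1003, 49.4 to 23.4 CPM in B1004, 31.7 to 9.46 CPM in B1502, 8.84 to 5.62 CPM in B1503 and 11.2 to 6.96 CPM in B1505, a change of -1.31 (SE 0.228, edgeR adjusted p = 0.0299). NEK10, a protein kinase (-1.35, SE 0.3), and SAMD3 (-1.19, SE 0.248) fell too, in 5 of 5 survivors.

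Over the lists, neutrophil granule genes had a median change of 1.17 in survivors, with 13 of 18 members higher at an unadjusted p under 0.05, against 8.8% of all genes, and 0 called. Mature neutrophil genes had a median of 0.95, with 16 of 24 members higher at that p and S100A9 called. Inflammatory cytokine signaling genes had 0.60 (15 of 29, with IL1B, JUNB and SOCS3 called) and eosinophil genes 0.83 (6 of 10, 0 called). B cell genes had a median of -0.66, with 17 of 25 members lower at an unadjusted p under 0.05, against 9.08% of all genes, and 0 called. Cytotoxic lymphocyte genes had -0.48 (7 of 22 lower). The mean log2 CPM of B cell genes at Day 60 and Day 90 was 5.79 and 4.20 in B1003, 6.45 and 5.06 in B1004, 5.61 and 4.72 in B1502, 5.36 and 5.35 in B1505 and 5.51 and 6.12 in B1503, so that B1003, B1004 and B1502 were lower at Day 90, B1505 was almost level and B1503 was higher.

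The number of calls within survivors depended on the libraries used. Without the Day 90 library of B1003 edgeR called 0 genes, with 1907 at an unadjusted p under 0.05 and a smallest adjusted p of 0.2. All 102 genes kept their direction and an unadjusted p under 0.05, and their median size was 0.953, against 1.04 before. These genes were chosen as calls in the same data, so this is not independent support for the changes. SOCS3 then had 1.63 (edgeR, adjusted p = 0.2) and S100A9 2.02 (adjusted p = 0.205). An animal needed both days here, so leaving out that library is the same fit as leaving out B1003. Leaving out B1003, B1004 or B1502 gave 0 calls, while leaving out B1505 gave 673, B1001 300 and B1501 274. Without B1503 there were 5 calls, without B1005 7, without B1506 10, without B1006 or B1504 11 and without B1002 15. List medians without the Day 90 library of B1003 were 1.11 for neutrophil granule, 0.73 for mature neutrophil, 0.56 for inflammatory cytokine signaling and -0.46 for B cell genes. Over all alternatives the median lay between 0.677 and 1.223 for mature neutrophil genes and between -0.954 and -0.463 for B cell genes.

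In earlier-ending animals edgeR called 0 genes between the 2 days, with 616 (4.48%) at an unadjusted p under 0.05, 279 of them (2.03%) lower at Day 90, and DESeq2 called 3 (AMPD3, ST8SIA1 and LOC708637). SOCS3 had 0.80 (SE 0.23) and S100A9 0.72 (SE 0.369), and neutrophil granule, mature neutrophil and B cell lists had medians of 0.38, 0.39 and -0.29. The adenosine monophosphate deaminase AMPD3 (0.76, SE 0.129) and ST8SIA1 (-0.89, SE 0.189) had the smallest p, with ST8SIA1 lower at Day 90 in 7 of 7 animals. The difference between groups in this change passed for 0 genes in edgeR and 0 in DESeq2, with 500 genes (3.64%) at an unadjusted p under 0.05 in edgeR (276, 2.01%, above 0), so a different course in survivors was not shown for any gene. KLF1, a master transcription factor of red cell development, came nearest among higher genes together with TMEM121B (1.18, SE 0.348). KLF1 at Day 60 and Day 90 was at 6.98 and 31.9 CPM in B1003, 2.99 and 28.4 CPM in B1004, 30.5 and 18.8 CPM in B1502, 7.91 and 24.5 CPM in B1503 and 56 and 78.8 CPM in B1505, and it was lower at Day 90 in 6 of 7 earlier-ending animals (difference 1.97, SE 0.585, edgeR adjusted p = 0.98). Erythroid genes had a median difference of 0.46, with 26 of 29 members above 0. LY75, TEX10 and HEATR1 were at the other end, at -0.72, -0.74 and -0.60.

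**Figure D4:**
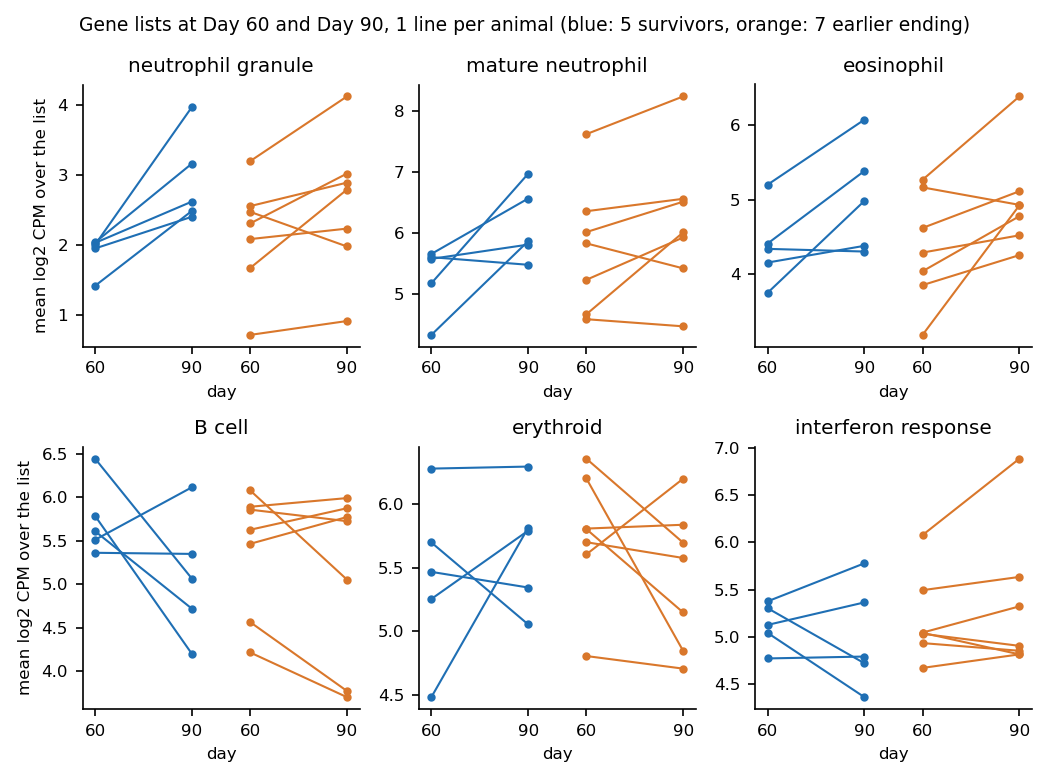
Mean log2 CPM over 6 gene lists at Day 60 and Day 90, with 1 line per animal, for the 5 survivors (blue, left in each panel) and the 7 earlier-ending animals (orange, right). Neutrophil granule genes were higher at Day 90 in all 5 survivors, and the ranges of the groups overlapped in each panel.

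Each animal was also set against its own control draw. All control libraries carry numbers and those of Day 60 and Day 90 carry 0 or a higher range, so the period and the library number cannot be told apart within a group. Within earlier-ending animals edgeR called 147 genes (1.07%), 84 of which rose and 63 fell, and 2762 (20.1%) had an unadjusted p under 0.05, with 9.05% higher. Of 10 tested eosinophil genes 5 rose. EPX, the peroxidase of eosinophil granules (chromosome 16, 38597065 to 38608574, minus strand), rose by 2.56 (SE 0.491, edgeR adjusted p = 0.0297) in 7 of 7 animals, from 0.498 to 10.6 CPM at the control draw to 5.59 CPM or more (median 20 CPM). IL5RA, the receptor chain for interleukin 5 that drives eosinophil growth (chromosome 2, 134391288 to 134428409, minus strand), rose by 2.15 (SE 0.366) in 7 of 7 animals. SMPD3, a neutral sphingomyelinase (1.84, SE 0.372), CCR3, the eotaxin receptor (1.19, SE 0.286), and ALOX15, the 15-lipoxygenase of eosinophils (1.17, SE 0.283), were the others.

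In survivors the same genes had 0.58 for EPX (SE 0.552), 0.61 for IL5RA (SE 0.4), 0.91 for SMPD3 (SE 0.434), 0.09 for CCR3 (SE 0.326) and 0.60 for ALOX15 (SE 0.33), none of which passed. EPX at the control draw and over Days 60 and 90 was at 93.2 and 63.6 CPM in B1003, 34.7 and 20.6 CPM in B1004, 21.4 and 49.9 CPM in B1502, 0.084 and 4.5 CPM in B1503 and 1.49 and 5.18 CPM in B1505. The 3 survivors B1003, B1004 and B1502 already had more EPX at the control draw than any earlier-ending animal. The difference between groups in the change of EPX was -1.98 (edgeR, unadjusted p = 0.0175, adjusted p = 0.999), and the eosinophil list had a median change of 1.17 in earlier-ending animals and 0.54 in survivors. The test thus did not show that the groups changed differently. The number of eosinophil genes called in earlier-ending animals was 3 without the Day 90 library of B1003, and 0 without B1501 or without B1504, with list medians of 1.08 and 1.09.

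SUCNR1, the succinate receptor (chromosome 2, 54107670 to 54118661, plus strand), rose by 2.30 (SE 0.298, edgeR adjusted p = 0.0063) in 7 of 7 earlier-ending animals. It was higher in 5 of 5 survivors by 1.97 (SE 0.349), which did not pass (adjusted p = 0.195). SP6, a transcription factor, rose by 2.44 (SE 0.378) in the earlier-ending group, as did CLEC7A, a receptor for fungal glucans (1.21), the complement receptor C3AR1 (0.92), the transcription factors KLF4 (0.99) and ATF3 (0.68), the p53 target TP53INP1 (0.81) and CISH (0.63). CLEC7A, C3AR1, KLF4, ATF3 and CISH were also above the own control in 5 of 5 survivors, and SP6 and TP53INP1 in 4, where none passed. CD79B, the signaling chain of the B cell receptor, fell by 0.962 (SE 0.212, edgeR adjusted p = 0.0425) in 7 of 7 animals, and TXNDC5, a disulfide isomerase of secretory cells, fell by 0.662. In survivors CD79B was above its control in 1 of 5 animals. The B cell list had a median change of -0.19 in earlier-ending animals and -0.23 in survivors, and MS4A1 rose in 3 of 7 earlier-ending animals. TOMM7, a subunit of the mitochondrial import complex (-1.13), NCBP2AS2 (-0.95) and KIAA1549 (-0.68) fell as well. Without the Day 90 library of B1003 the fits, which share 1 spread, kept 17 of 22 named genes as calls, and those of TOMM7 (edgeR, adjusted p = 0.0558), KIAA1549 (0.0502), C3AR1 (0.0633), CCR3 (0.0558) and ALOX15 (0.069) were lost. The count of 147 calls was 102 without the Day 90 library of B1003, 5 without B1501, 7 without B1504, 9 without B1005, 13 without B1001, 26 without B1006, 51 without B1002, 68 without B1503, 77 without B1003 and 84 without B1506, and without B1004 it was 1.65% of the genes tested.

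Within survivors edgeR called 0 genes against the own control, with 1821 (13.2%) at an unadjusted p under 0.05, 959 of them (6.97%) higher, and DESeq2 called 78. CSTA, the protease inhibitor cystatin A, had 2.76 (SE 0.528) and CISH 0.85 (SE 0.155), and both were higher in 5 of 5 survivors. XRCC6, the Ku70 subunit of DNA end joining (-0.74), DDX24 (-0.72) and TANC1 (-0.69) had the smallest p among lower genes. The difference between groups in the change from the own control passed for 0 genes by edgeR and by DESeq2, with 1.56% of genes at an unadjusted p under 0.05 in edgeR, 145 of them (1.05%) above 0. ARMC12, the defensin RTD1A and ACP4 were at 1.49, 1.90 and 1.38, and CA8, SEMA6D and WNT2B at -0.97, -1.49 and -1.37.

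**Figure D5:**
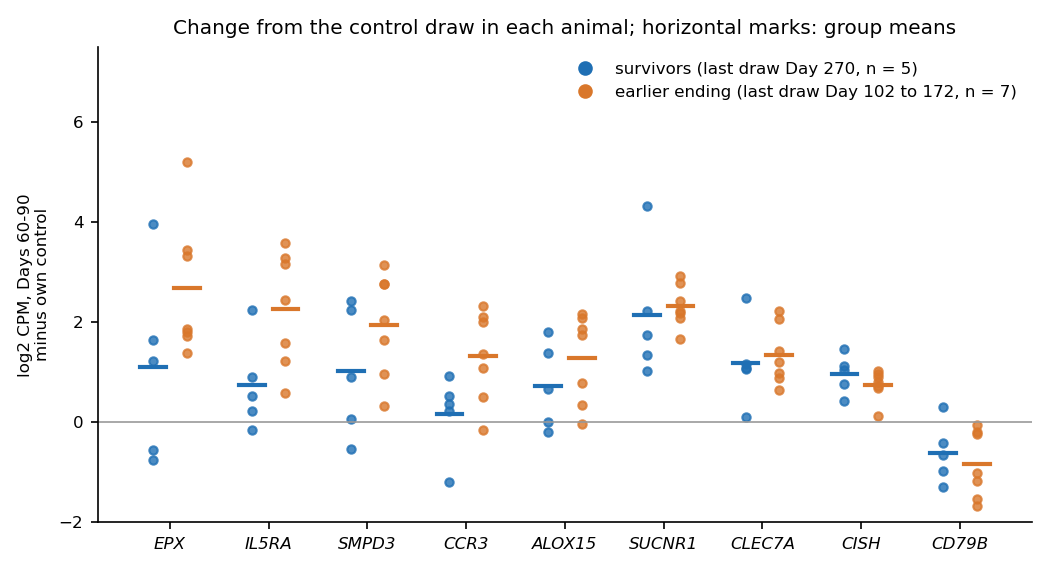
Change from the control draw to the summed Days 60 and 90 in log2 CPM, with 1 point per animal and a horizontal mark at the mean of the survivors (blue) and of the earlier-ending animals (orange). EPX, IL5RA and SMPD3 were above 0 in 7 of 7 earlier-ending animals, and the points of the groups overlapped for each gene shown.

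The 2 groups were compared on the other draws as well. At the control draw edgeR called 0 genes, with 212 (1.54%) at an unadjusted p under 0.05 (0.691% lower in survivors), and the groups did not overlap for 7 genes (0.0509%), none of which was among the 12 of Days 60 and 90. On Day 3, 6, 9, 15, 21, 30, 40 and 120 edgeR called 0 genes each. Genes at an unadjusted p under 0.05 made up 2.55% of all genes 3 days after irradiation (1.57% lower in survivors), 2.44% after 6 days (1.05% lower), 3.91% after 9, 4.12% after 15, 2.76% after 21, 3.94% after 30, 2.84% after 40 and 1.22% after 120 days. DESeq2 called PIM1 on Days 6, 9, 15 and 21, and PRSS22 and RNF135 on Day 15, with up to 703 genes at an unadjusted p under 0.05 over these days (Day 9). The difference of PIM1 lay between 2.69 (Day 120) and 4.17 (Day 30) on these days. That of SEMA6B lay between 1.53 and 1.88, and that of SEMA6D between -0.92 and 0.16, against -1.66 and -2.29 at Day 60 and Day 90. These genes were chosen by their p on Days 60 and 90, so smaller differences on other days can follow from that choice.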

How the data were processed

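Blood was drawn from a peripheral vein into an RNA-preserving reagent, ribosomal RNA was depleted, and stranded total RNA libraries were sequenced in pairs. Per the submitters' processing notes and the paper's methods, the authors trimmed reads with cutadapt 2.10, aligned them to Mmul_10 with STAR 2.7.6a and counted them on genes with Subread 2.0.1. Use of the strand in counting is not given in the sources used here. The deposited table holds raw counts for 21070 genes, and a second table deposited by the authors holds upper-quartile scaled log2 values for 16730 genes.

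A gene was tested where 80% or more of all libraries of the series held 3 or more counts of it (13751 genes). The counts of Day 60 and Day 90 were summed per animal and tested with edgeR 4.0.16 (R 4.3.3, quasi-likelihood, upper quartile scaling, Benjamini-Hochberg adjustment). Calls needed an adjusted p up to 0.05 together with a 1.5-fold or larger change. Changes within animals had the animal as a block, since the labels give the animal of each library, and these fits shared 1 estimate of the spread over both groups. Log2 CPM used a prior count of 2. The standard error was the size of the log2 change divided by the root of its F value. Samples of a group are separate animals. Depth sets the precision of low genes, and intervals cover the spread between animals. Correlations of libraries used 400 genes.

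The members and the 26 gene lists were chosen with earlier results of these data known. Genes named were those called and then those of smallest unadjusted p, 10 in each direction for the summed comparison and 3 for the others, with a symbol and at least 1 CPM in the higher group. In each list the 2 members of smallest p, the 2 of highest level and all called members could be named, and the text gives a selection of these. HBB, FKBP5, IL1R2, the collagen genes, SLX1A in the summed comparison and the genes named for counts of at most 5 were chosen after their values were seen. A few items are not reported here. Alternatives were TMM scaling, DESeq2 1.42.0, no filter, a minimum of 10 counts, limma 3.58.1 on the deposited log2 values, sex or library number as covariates, animals of library number 0, no block, and leaving out each animal. The scripts were tested on simulated data. Tables and figures used the data.table package of R (version 1.17.8), Python 3.11.15, pandas 2.3.3, NumPy 2.4.6 and Matplotlib 3.10.9. All 161 named genes were located in the RefSeq annotation of Mmul_10.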

Additional observations from a re-analysis of the deposited data

Results flagged for a closer look

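In 94 groups of values tested by Dixon's criterion, 6 (6.38%) held an animal that stood apart from the rest of its group, where chance gives about 1 in 20. In survivors RHPN2 was at 0.105 CPM in B1503, against 0.694 to 1.03 CPM in the others, values near the limit of counting. SLFN11 was at 8.14 CPM in survivor B1004, against 14.4 to 17.9 CPM. The mean log2 CPM of T cell genes was 5.81 in the earlier-ending animal B1504, against 6.52 to 7.02. Erythroid genes were at 6.41 in survivor B1505, against 5.5 to 5.72, and at 4.87 in the earlier-ending animal B1001, against 5.68 to 6.14. DNA replication and mitosis genes were at 2.81 in survivor B1502, against 3.31 to 3.49.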

How the results depend on the processing

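No named gene changed direction under any alternative, but 91 of their values under alternatives, from 13 calls, were no longer past the threshold and 9 became so. The summed comparison, Day 60 and the differences in change between groups gave 0 calls in edgeR under TMM scaling, both other filters, the covariates and without any single animal. DESeq2 gave 1 call in the summed comparison, at the control draw and on Days 6, 9 and 21, 3 on Day 15, 3 for Day 90 minus Day 60 in earlier-ending animals and 558 in survivors, and for the change from the own control 3.09% of genes in earlier-ending animals and 78 genes in survivors. The call at Day 90 went to 0 with sex as a covariate and among animals of library number 0, and leaving out 1 animal gave 0 to 1. For Day 90 minus Day 60 in survivors, TMM scaling gave 32 calls, no filter 362, and the Day 90 library of B1003 left out, an alternative chosen after seeing the data, 0. Leaving out 1 animal gave 0 to 673 there. In earlier-ending animals the same range was 0 to 1. The change from the own control in earlier-ending animals called 0.0364% to 1.65% of genes without 1 animal, and 0.742% without the Day 90 library of B1003. With no replicate block, which drops the pairing of libraries of 1 animal, both within-group counts went to 0. Under the alternatives 545 list medians moved by less than 1 SD between animals and 1 by more (fibroblast and endothelium, -0.55 without B1502). A move of less than 1 SD could still change the sign. Without 1 animal the summed median ran from -0.226 to 0.178 for inflammatory cytokine signaling and from -0.336 to 0.271 for eosinophil genes. Of lists with at least 9 tested members, only the plasma cell, class II, p53 target and transforming growth factor beta lists kept their sign throughout. For most calls that were lost the cause was not tested. Depth limits genes under about 1 CPM, such as CELA1.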

Other observations

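B1504, the animal that ended first, held an extreme place among the 12 animals in several lists. Its mean log2 CPM of mature neutrophil genes was 7.62 at Day 60 and 8.24 at Day 90, above all others, and it was already 7.94 at the control draw. Its interferon response genes were at 6.08 and 6.88 and its inflammatory cytokine signaling genes at 5.54 and 6.06, the highest values of the 12 animals on both days. Its T cell genes were at 5.97 and 5.43, its B cell genes at 4.21 and 3.70 and its cytotoxic lymphocyte genes at 4.90 and 4.54, the lowest values on both days. These values describe 1 animal.

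Collagen genes stood high in 1 draw of survivor B1503. At Day 60 COL1A1 was at 262 CPM (1127 reads), COL3A1 at 144 CPM and COL1A2 at 90.3 CPM in that animal, whereas COL1A1 was at 0 to 7.52 CPM in earlier-ending animals on that day and at 0 to 2.75 CPM in survivors at Day 90. On the other draws of B1503 COL1A1 was at 0 to 2.47 CPM. A source of this RNA was not tested.

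The glucocorticoid-induced genes FKBP5 and IL1R2 had lower levels at Days 60 and 90 than at Day 120 in part of the animals. The median of FKBP5 was 158 CPM in survivors and 184 CPM in earlier-ending animals at Day 60, and 147 CPM and 180 CPM at Day 90, with 341 CPM as the highest value. At Day 120 it reached 2070 CPM in survivors and 2140 CPM in the 6 earlier-ending animals drawn then. IL1R2, a decoy receptor for interleukin 1, reached 303 CPM at Day 90 and 2080 CPM at Day 120. Which animals had received dexamethasone by these draws is not labelled, so its part was not tested.

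PIM1 was also read in the 16 animals given 10.7 Gy. B2501 had a median of 37.6 CPM over 10 draws and a last draw at Day 77, B2502 a median of 30.3 CPM and a last draw at Day 270, and B2507 a median of 24.9 CPM and a last draw at Day 120. The medians of the other animals of that dose were 1.52 to 2.88 CPM. A high PIM1 median was thus found at the higher dose in animals that ended before Day 270 as well as in the 1 that reached it.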
